A study of Mus musculus with 4 samples.

Results

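The 10 genes described here, Amd1, Amd2, Odc1, Srm, Sms, Smox, Sat1, Oaz1, Oaz2 and Azin1, encode the enzymes of polyamine synthesis and turnover and their regulators. They were chosen by gene symbol, and the set was selected on the fall of Amd1, Amd2 and Smox after denervation, so every denervation value of these genes is a description and carries no test. All 10 were found among 13825 genes in the count table, and all 10 passed the minimum mean count of 10 that left 13084 genes. The libraries came from the tibialis anterior (TA) muscle of adult male wild-type (WT) and whole-body FGF21KO mice, which lack the growth factor FGF21. A 2 mm piece of the left sciatic nerve was removed in both genotypes, the right leg kept its nerve, and muscles were taken after 14 days. The 4 groups were sham and denervated muscle of WT mice (WS and WD) and of FGF21KO mice (KS and KD). The methods of the study describe a longer excised segment and a sham operation on the contralateral limb, whereas the series text describes an intact right leg. RNA of 4 muscles was pooled per group, so each group was 1 library, differences between groups had no replicate check, and the spread between mice could not be measured. The methods of the study name C57BL/6J for WT mice, and the background of the FGF21KO mice was not given in the sources used here.

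Putrescine, spermidine and spermine are small polycations that bind nucleic acids and are needed for growth and translation. Ornithine decarboxylase makes putrescine, and S-adenosylmethionine (SAM) decarboxylase makes the aminopropyl donor with which spermidine synthase and spermine synthase lengthen it. Spermine oxidase turns spermine back into spermidine, an acetyltransferase marks polyamines for export or oxidation, and antizymes bind ornithine decarboxylase and direct it to the proteasome. In skeletal muscle, transcripts of this pathway are known to respond to androgens, loading and loss of innervation.

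The transcripts of both SAM decarboxylase genes and of Smox were 13.8-fold to 18.1-fold lower in denervated than in sham muscle of both genotypes. Odc1, for the enzyme at the entry of the pathway, was 2.31-fold higher in WD than in WS and 1.77-fold higher in KD than in KS. The other 6 genes lay within 1.45-fold of sham. Between genotypes within sham or within denervated muscle, no member differed 2-fold. Members at least 2-fold lower in WD than in WS numbered 3 of 10, beside 7.61% of all tested genes, and 1 of 10 was at least 2-fold higher, beside 7.18%. In KD against KS, 3 of 10 were at least 2-fold lower, beside 6.1% of tested genes, and 0 of 10 were at least 2-fold higher, beside 7.51%. Nothing is read from these 4 shares, because the set was selected on the same contrasts.

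Amd1 and Amd2 both carry the sequence of SAM decarboxylase, and reads from them are hard to assign. In GENCODE M21 (build GRCm38, while the processing notes name GRCm39), Amd1-201 has 8 exons and 3204 bases, and Amd2-201 is a single-exon copy of 3218 bases. Both lie on the minus strand of chromosome 10. A global alignment of the transcripts gave 3190 identical bases, 11 mismatches, 3 bases found only in Amd1 and 17 found only in Amd2. Over the coding parts, 1005 bases each, there was 1 difference, G796C, counted from 1 at the A of the start codon, with the base of Amd1 first. The stretch of 120 coding bases around it, positions 737 to 856, is shown because it is the only coding place where a read can tell the genes apart, and the capital marks the base that differs.
Amd1: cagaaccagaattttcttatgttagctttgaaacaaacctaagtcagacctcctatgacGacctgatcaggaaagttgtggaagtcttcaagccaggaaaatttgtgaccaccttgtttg
Amd2: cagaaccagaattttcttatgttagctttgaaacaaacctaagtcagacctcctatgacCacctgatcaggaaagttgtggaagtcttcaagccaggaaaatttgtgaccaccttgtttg

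Of all 50-base windows of Amd1-201, 87.6% were also found in a transcript of another gene, and of all 100-base windows, 76.4%. For Amd2-201 these shares were 85.7% and 72.9%. The processed pseudogene Amd-ps3 differed from the coding part of Amd1 at 1 base, and Amd-ps4 at 3 bases with 2 bases missing, and each has a row of its own in the count table. The read length and the handling of reads that match several genes were not given in the sources used here, so the split of counts among Amd1, Amd2 and these pseudogenes is uncertain, and the summed pair was followed as well. No 50-base window of Smox-204 or Azin1-201 was found elsewhere. The shares of 50-base windows found elsewhere were 52.2% for Oaz1, 42.2% for Odc1, 28.7% for Sms, 12% for Oaz2, 7.28% for Sat1 and 2.40% for Srm.

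The bases upstream of the transcription start are shown for the 3 genes that were lowest after denervation and for Odc1, which was higher. They are the 250 bases before the RefSeq start on GRCm38.p6, printed 5′ to 3′ on the strand of the gene, and capitals mark CANNTG, the general form of the E-box.
Amd1, chr10:40302189-40302438, minus strand: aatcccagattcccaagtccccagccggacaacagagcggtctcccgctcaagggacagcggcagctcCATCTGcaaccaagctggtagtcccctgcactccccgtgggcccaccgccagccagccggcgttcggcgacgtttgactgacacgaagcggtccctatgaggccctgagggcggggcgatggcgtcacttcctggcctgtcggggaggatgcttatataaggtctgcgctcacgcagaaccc
Amd2, chr10:35711892-35712141, minus strand: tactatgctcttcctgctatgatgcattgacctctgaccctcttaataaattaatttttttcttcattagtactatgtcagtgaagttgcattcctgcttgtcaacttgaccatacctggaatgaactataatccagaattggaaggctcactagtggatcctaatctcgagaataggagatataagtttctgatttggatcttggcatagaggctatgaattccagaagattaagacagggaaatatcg
Smox, chr2:131491612-131491861, plus strand: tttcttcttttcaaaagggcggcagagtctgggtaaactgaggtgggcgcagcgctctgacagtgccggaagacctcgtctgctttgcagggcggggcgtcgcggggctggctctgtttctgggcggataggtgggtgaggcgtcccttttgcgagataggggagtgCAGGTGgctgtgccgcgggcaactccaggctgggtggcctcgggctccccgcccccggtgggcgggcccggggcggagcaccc
Odc1, chr12:17544623-17544872, plus strand: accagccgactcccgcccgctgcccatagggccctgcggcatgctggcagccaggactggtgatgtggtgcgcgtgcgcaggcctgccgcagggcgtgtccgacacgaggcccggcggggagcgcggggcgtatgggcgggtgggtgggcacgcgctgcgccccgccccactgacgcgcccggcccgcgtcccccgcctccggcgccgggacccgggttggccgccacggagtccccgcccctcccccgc

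The promoter table held 8 of the 10 members. The upstream bases were 64.4% G or C in Amd1, 68.0% in Smox and 80.0% in Odc1, against 37.6% in Amd2. CACGTG (the E-box of Myc and Usf factors) and CAGCTG (an E-box bound by myogenic factors) were searched on either strand in the whole 300 bases, 50 of them after the start, and neither was found in Amd1, Amd2, Smox or Odc1. All promoters of that length held CACGTG in 7.15% and CAGCTG in 16.3% of cases. Among the members, CACGTG was found in 1 of 2 listed promoters of Sms, and CAGCTG in no member. The letters TATAAA, one form of the TATA box, were found in 13.6% of all promoters. Among the members they were found in the 300 bases of Oaz1 alone, though not within its 250 upstream bases. Other forms were not searched, and the upstream bases of Amd1 printed above hold tatataag. CANNTG, which overlaps both E-boxes and was added after these searches, occurred once upstream in Amd1 and once in Smox, and in neither Amd2 nor Odc1, while 66.2% of all upstream stretches held it.

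Levels are given first as CPM, read counts relative to library size, with trimmed mean of M-values (TMM) scaling, a correction for the makeup of each library. Total counts over the table ran from 25249879 to 34141303, and mitochondrially encoded genes took 19.6% to 20.8% of counts in the denervated and 27.3% to 30.8% in the sham libraries. Intervals in the text cover counting error only, at 95%.

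**Figure D1:**
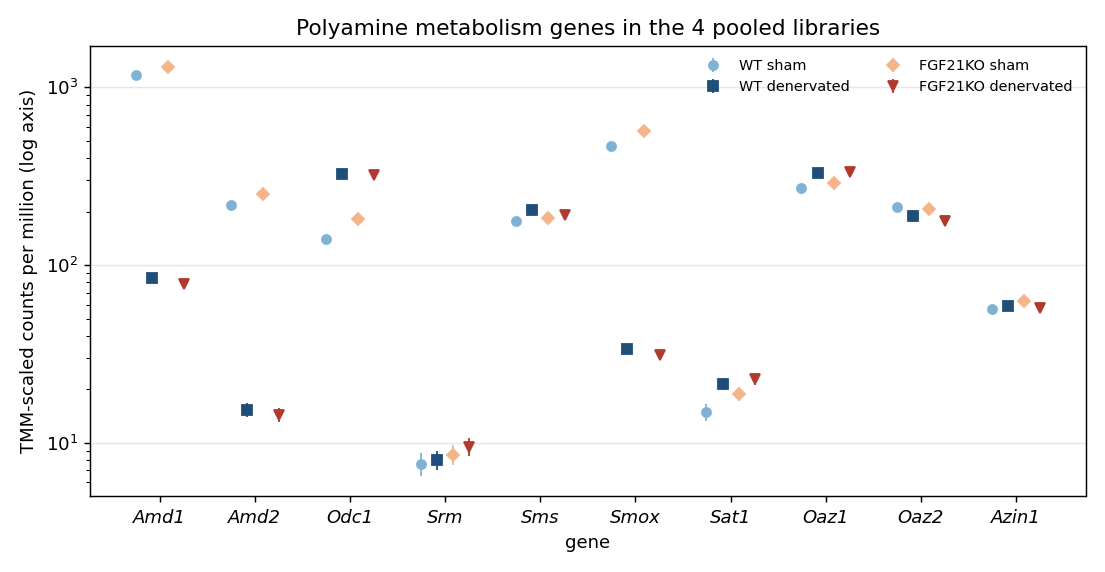
TMM-scaled CPM (log axis) of the 10 genes in the 4 pooled libraries, with 95% Poisson intervals of the count. Amd1, Amd2 and Smox sit more than 10-fold lower in both denervated libraries, Odc1 sits higher in both, and the other 6 genes stay close together.

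Amd1, the SAM decarboxylase gene with introns, measured 1170 CPM in WS and 1298 in KS, against 84.7 in WD and 77.9 in KD. Both sham libraries were high and both denervated libraries low, with no overlap between treatments. The log2 ratio was -3.79 (interval -3.85 to -3.73) for WD against WS and -4.06 (interval -4.12 to -4.0) for KD against KS. Amd2, the single-exon copy, measured 219 CPM in WS and 252 in KS, against 15.4 in WD and 14.4 in KD. Its log2 ratios were -3.83 in WT and -4.12 in FGF21KO, with intervals that overlapped those of Amd1. The summed pair stood at 1389 CPM in WS and 1550 in KS, against 100.1 in WD and 92.3 in KD, so that denervated muscle held 7.21% of the sham level in WT and 5.96% in FGF21KO. With the rows of Amd-ps3 and Amd-ps4 added to the pair, these shares were 7.25% and 6.02%.

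Within a library the pair could be compared free of scaling. Amd2 took 15.8% of the Amd1 and Amd2 counts in WS and 16.3% in KS, and 15.4% in WD and 15.6% in KD. The Wilson intervals of WS (15.4% to 16.2%), WD (14.2% to 16.6%) and KD (14.3% to 17.0%) all overlapped that of KS (15.9% to 16.6%). The pseudogene rows took 5.37% of all Amd counts in WS and 4.34% in KS, and 5.90% in WD and 5.31% in KD. The pseudogene share of KS (Wilson interval 4.16% to 4.53%) lay below the intervals of WS (5.13% to 5.61%), WD (5.17% to 6.74%) and KD (4.56% to 6.16%). Since most positions of these genes have the same bases, these shares do not say from which gene the reads came.

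Odc1, for the rate-limiting enzyme of putrescine synthesis, measured 140 CPM in WS and 182 in KS, against 323 in WD and 322 in KD. The denervated libraries lay close together and above both sham libraries, and KS lay above WS. The log2 ratio was 1.21 (interval 1.15 to 1.26) in WT and 0.82 (interval 0.77 to 0.87) in FGF21KO, the second of which reached 1.18 when counts were scaled by library totals only. Within a library, 0.101 Odc1 reads were counted per read of the Amd pair in WS and 0.117 in KS, against 3.23 in WD and 3.48 in KD.

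Srm, spermidine synthase, the lowest member in sham muscle also per length, measured 7.62 CPM in WS and 8.59 in KS, against 8.0 in WD and 9.54 in KD. Its denervation log2 ratios of 0.07 (interval -0.21 to 0.35) and 0.15 (interval -0.10 to 0.40) rest on 177 to 295 counts per library. Sms, spermine synthase, measured 176 CPM in WS and 185 in KS, against 205 in WD and 192 in KD, with log2 ratios of 0.22 in WT and 0.05 in FGF21KO. Both synthase genes therefore lay within 1.17-fold of sham in both genotypes. The row of its pseudogene Sms-ps, with which it shares windows, stood at 0.83 and 0.55 on 118 to 296 counts per library.

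Smox, spermine oxidase, measured 468 CPM in WS and 564 in KS, against 33.9 in WD and 31.1 in KD. The log2 ratio was -3.78 (interval -3.88 to -3.70) in WT and -4.18 (interval -4.28 to -4.09) in FGF21KO. Denervated muscle held 7.27% and 5.53% of the sham level, close to the values of the Amd pair. Sat1, the spermidine/spermine acetyltransferase, measured 14.9 CPM in WS and 18.8 in KS, against 21.5 in WD and 22.9 in KD. Its log2 ratio was 0.53 (interval 0.35 to 0.73) in WT and 0.29 (interval 0.13 to 0.45) in FGF21KO, and both denervated libraries lay above both sham libraries. The transcripts of these breakdown enzymes thus went in different directions, with Smox lower and Sat1 higher in denervated muscle. The Sat1 ratio was above the median size of the ratio over all tested genes in WT (0.40) and below it in FGF21KO (0.39).

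Oaz1, the main antizyme, measured 271 CPM in WS and 288 in KS, against 329 in WD and 336 in KD. Oaz2, a second antizyme, measured 212 CPM in WS and 208 in KS, against 189 in WD and 177 in KD. Azin1, which binds antizymes and so frees ornithine decarboxylase, measured 56.9 CPM in WS and 62.8 in KS, against 58.7 in WD and 57.4 in KD. Oaz1 was higher in denervated muscle, with log2 ratios of 0.28 in WT and 0.22 in FGF21KO. The row of its pseudogene Oaz1-ps, with which it shares windows, stood at 0.08 (interval -0.03 to 0.19) and 0.16 (interval 0.05 to 0.26). That of Oaz2-ps, which shares windows with Oaz2, stood at -0.23 and -0.18. Oaz2 was lower at -0.16 and -0.23, but under library totals only, which moved the median of all tested genes to 0.29 in WT and 0.36 in FGF21KO, its values were 0.12 and 0.13. Azin1 gave 0.05 (interval -0.06 to 0.15) in WT and -0.13 (interval -0.23 to -0.04) in FGF21KO, and under library totals only 0.33 and 0.23.

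**Figure D2:**
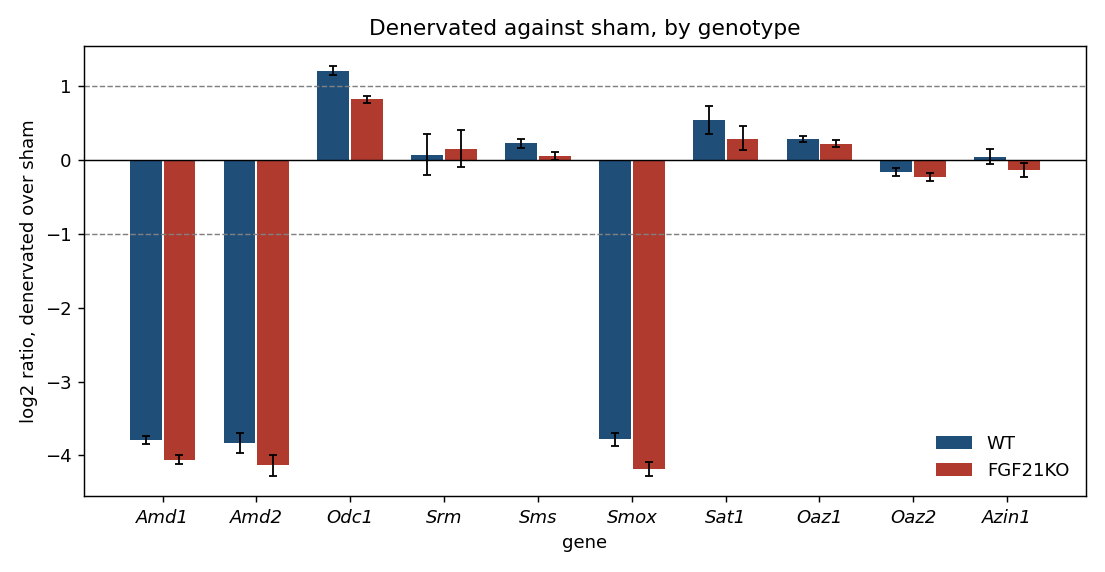
Log2 ratio of TMM-scaled CPM, denervated over sham, for each gene in WT and FGF21KO, with 95% counting intervals and dashed lines at 2-fold. Amd1, Amd2 and Smox lie between -3.78 and -4.18, Odc1 lies at 1.21 and 0.82, and the other 6 genes lie between -0.23 and 0.53.

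Among the 13084 tested genes, ordered from the lowest log2 ratio, Amd2, Amd1 and Smox stood at places 2, 3 and 4 in WT, and Smox, Amd2 and Amd1 at places 2, 3 and 4 in FGF21KO. Odc1 stood at place 653 from the highest in WT and 1366 in FGF21KO. These places come from the contrasts on which the set was selected. The median log2 ratio of the 10 members was 0.06 in WT and -0.04 in FGF21KO, and that of all tested genes was 0.0076 and 0.0098.

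**Figure D3:**
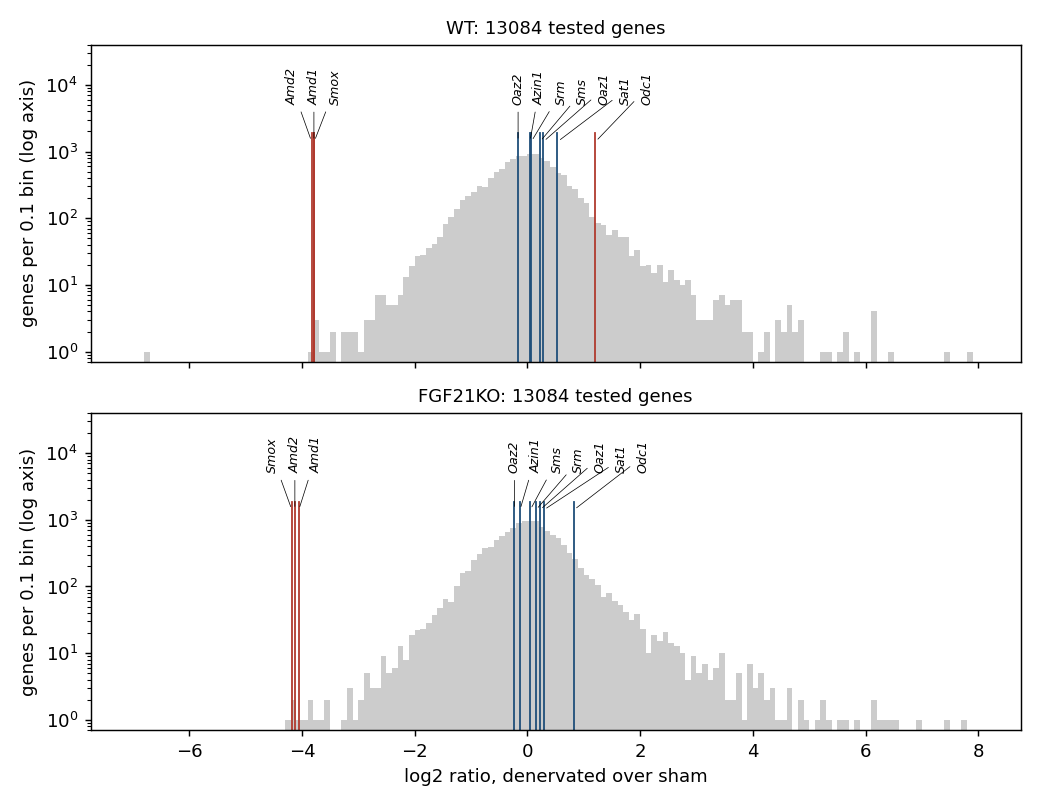
Number of tested genes per 0.1 step of the log2 ratio, denervated over sham (log axis), in WT (upper panel) and FGF21KO (lower panel), with the 10 genes marked, red where at least 2-fold. Amd1, Amd2 and Smox stand at places 2 to 4 of the lower end in both panels, and the others lie inside the body of the distribution.

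The counts of Smox kept nearly the same proportion to those of the Amd pair in all libraries. Per read of the pair, 0.337 Smox reads were counted in WS (exact interval 0.329 to 0.344), 0.339 in WD (0.316 to 0.363), 0.364 in KS (0.358 to 0.371) and 0.337 in KD (0.313 to 0.363). The value in KS lay above the interval of WS, and the intervals of WD and KD overlapped that of KS.

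**Figure D4:**
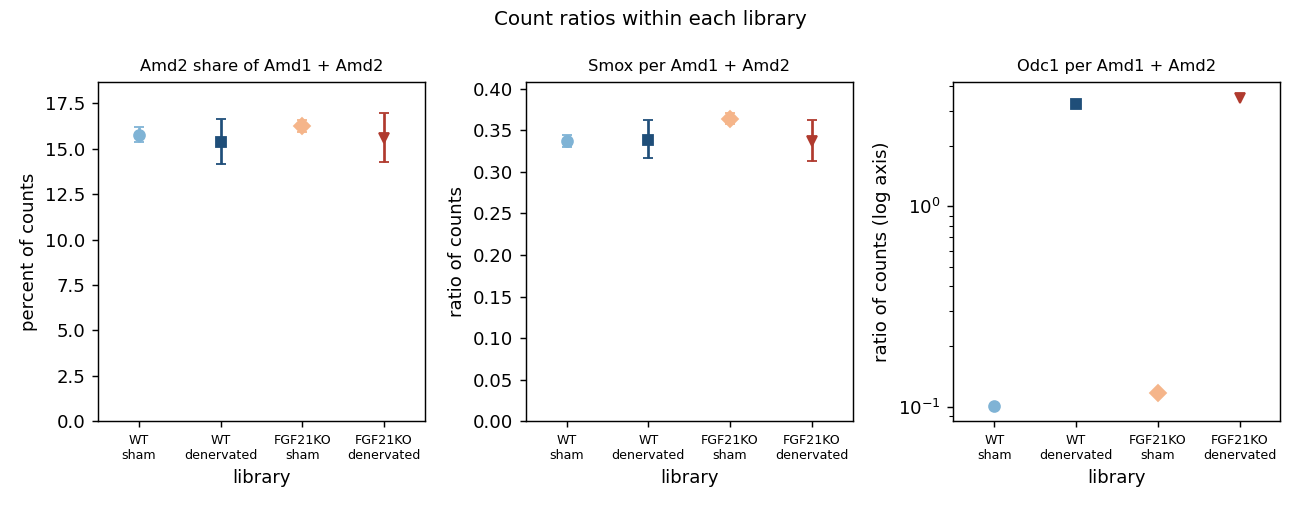
Count ratios within each of the 4 libraries, with 95% intervals in the first and second panels. The Amd2 share stays between 15.4% and 16.3% and the Smox ratio between 0.337 and 0.364, while Odc1 per Amd read (log axis) goes from 0.101 and 0.117 in sham to 3.23 and 3.48 in denervated libraries.

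Genes with the most similar profile were searched by Euclidean distance between centred log2 CPM over the 4 libraries, among 11306 other genes of which each averaged at least 50 counts. The same 5 genes came out for the Amd pair and for Smox. Their distances to the pair were 0.28 for Ramp1, a partner protein of the calcitonin-like receptor, 0.31 for Amd-ps3, 0.43 for Fam57b, 0.48 for Amd-ps4 and 0.73 for Mlf1, and the distance between Smox and the pair was 0.094. Ramp1 had 1551 counts in WS and 2271 in KS, against 200 in WD and 146 in KD. Fam57b had 1673 counts in WS and 1818 in KS, against 178 in WD and 165 in KD. Mlf1 had 5961 counts in WS and 11286 in KS, against 1166 in WD and 895 in KD. Amd-ps3 and Amd-ps4 share sequence with the pair, so their likeness is no separate observation, and 4 points per gene make this a description.

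Levels were compared between genes only per length, as CPM per kb of the longest coding transcript in GENCODE M21. In WS the order was Amd1 (365), Oaz1 (253), Smox (203), Oaz2 (115), Amd2 (68.1), Odc1 (63.4), Sms (47.4), Sat1 (12.8), Azin1 (11.7) and Srm (5.69). The counting intervals of neighbours overlapped only for Sat1 and Azin1. In WD the order was Oaz1 (308), Odc1 (146), Oaz2 (102), Sms (55.3), Amd1 (26.4), Sat1 (18.5), Smox (14.8), Azin1 (12.1), Srm (5.98) and Amd2 (4.78), with no overlap between neighbours. Amd1 thus went from the highest level of the 10 to the fifth, and Smox from the third to the seventh, and the same places were found in KS and KD. The places of Amd1 and Amd2 rest on the uncertain split of reads between them and their pseudogenes. With all exons of a gene joined as the length, 24 of the 40 places were unchanged, Amd1 stayed the highest in both sham libraries and the fifth in both denervated libraries, and Smox stood second in sham.

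The genotype contrasts were not used to select the set. For KS against WS, 0 of 10 members were at least 2-fold higher, beside 0.887% of tested genes, and 0 were at least 2-fold lower, beside 1.15%. The log2 ratios ran from -0.03 for Oaz2 to 0.38 (interval 0.31 to 0.44) for Odc1. Above 0 were 9 of 10, beside 6504 of 13084 tested genes, with Amd1 and Amd2 counted separately although their reads are hard to assign. Of the 9, Sms, at 0.07, gave -0.0089 under library totals only. Sat1 stood at 0.34 (interval 0.14 to 0.53), Smox at 0.27 (interval 0.24 to 0.31) and the Amd pair at 0.16 (interval 0.14 to 0.18). The median over the members was 0.16, against -0.0017 over all tested genes. With the sign left aside, the median size of the ratio was 0.16 over the members and 0.15 over all tested genes. For KD against WD, 0 of 10 were at least 2-fold higher, beside 0.841%, and 0 at least 2-fold lower, beside 0.711%. The ratios ran from -0.12 for Smox (interval -0.25 to 0.0026) to 0.25 for Srm (interval 0.01 to 0.50), with a median of -0.06, against -0.0045 over all tested genes. Above 0 were 3 of 10 members, beside 6376 of 13084 tested genes. The median size in this contrast was 0.09 over the members and 0.11 over all tested genes.

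The denervation ratios of the genotypes were set side by side without a test, because their difference takes the only residual degree of freedom. The difference, FGF21KO minus WT, was -0.27 (interval -0.35 to -0.19) for Amd1, -0.30 (interval -0.49 to -0.11) for Amd2, -0.39 (interval -0.52 to -0.27) for Smox and -0.38 (interval -0.46 to -0.31) for Odc1. The ratio was thus further below 0 in FGF21KO for the 3 low genes and nearer to 0 for Odc1. For these 4 genes the sham level was higher in KS than in WS, while the denervated levels were within 1.09-fold of each other. The median size of the difference was 0.21 over the members and 0.17 over all tested genes, and 0 members differed by 1 or more on the log2 scale, as 538 of 13084 tested genes did.

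An additive model of surgery and genotype over the 4 libraries, tested by quasi-likelihood in edgeR and adjusted by Benjamini-Hochberg over all tested genes, took the sham and denervated libraries of a genotype as replicates. By the series text these are the right and left legs of the same mice, so they are not separate animals and the test does not measure the spread between mice. It called 0 of 10 members for genotype, at an adjusted p below 0.05 and 2-fold, beside 0.176% of all tested genes. Only Odc1 had an unadjusted p below 0.05 (1 of 10 members), and its log2 difference, FGF21KO over WT, was 0.18. Its adjusted p, the lowest of the members, was 0.543 in edgeR, and it was higher in KS than in WS but not in KD than in WD. DESeq2's Wald test called 0 members and had 0 at an unadjusted p below 0.05.

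Neighbouring steps of the pathway were followed in 41 genes listed by role, of which 32 were in the table and 9 were not analysed here (Arg1, Arg2, Agmat, Aoc1, Oaz3, Atp13a4, Slc12a8, Mat1a and Cbs). In WD against WS, 4 of 32 were at least 2-fold higher and 2 at least 2-fold lower, beside 7.18% and 7.61% of all tested genes. In KD against KS, 4 were higher and 4 lower, beside 7.51% and 6.1%. The median log2 ratio of the 32 was -0.01 in WT and 0.04 in FGF21KO, beside the 0.0076 and 0.0098 of all tested genes. The same 4 genes were higher and the same 2 lower in both genotypes.

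In arginine supply, 2 of 5 genes were at least 2-fold higher and 1 at least 2-fold lower in both genotypes, beside the same shares of all tested genes (7.18% and 7.61% in WT, 7.51% and 6.1% in FGF21KO). Ass1, argininosuccinate synthase, measured 1.59 CPM in WS and 1.82 in KS, against 35.8 in WD and 29.0 in KD (log2 ratios 4.43 and 3.95). Its sham levels rest on only 37 counts in WS and 54 in KS. Over the alternative settings its ratio ran from 3.81 to 4.71 in WT and from 3.39 to 4.30 in FGF21KO. Asl, argininosuccinate lyase and the next step to arginine, stood at 1.5 and 1.72. Slc7a2, a transporter of cationic amino acids such as arginine and ornithine, was lower at -1.73 and -1.88. These genes precede ornithine, the substrate of Odc1, and went both ways.

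In polyamine transport, 2 of 5 genes were likewise at least 2-fold higher and 1 at least 2-fold lower, beside 7.18% and 7.61% of all tested genes in WT and 7.51% and 6.1% in FGF21KO. Atp13a3, a P-type ATPase of polyamine uptake, measured 40.2 CPM in WS and 36.3 in KS, against 579 in WD and 646 in KD (log2 ratios 3.85 and 4.15). Its fold size was thus similar to that of the Amd pair and opposite in sign. Slc22a3, an organic cation transporter, stood at 2.09 and 1.96 on only 8 to 71 counts per library. Atp13a2, the lysosomal polyamine exporter, was lower at -1.11 (interval -1.27 to -0.96) and -1.03 (interval -1.18 to -0.88). Under library totals only its values were -0.83 and -0.67, short of 2-fold.

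In the methionine cycle and the salvage of methylthioadenosine, the by-product of aminopropyl transfer, 0 of 15 genes were at least 2-fold higher. The shares of all tested genes were 7.18% in WT and 7.51% in FGF21KO. At least 2-fold lower were 0 of 15 in WT, beside 7.61% of all tested genes, and 2 of 15 in FGF21KO, beside 6.1%. Adi1 and Enoph1, enzymes of methionine salvage, stood at -0.86 and -0.92 in WT and at -1.20 and -1.17 in FGF21KO. Ahcy, S-adenosylhomocysteine hydrolase, had the highest values of this list at 0.61 and 0.64. Hypusine is a lysine residue modified with a part of spermidine. In the hypusine group, which covers the translation factor that carries it, Eif5a stood at 0.35 and 0.36. Eif5a2, its paralog, was 2-fold apart only between KD and WD, with a log2 ratio of 1.32 on 81 and 33 counts, and it was the 1 gene of 32 that passed 2-fold there, beside 0.841% of all tested genes higher and 0.711% lower. Of the remaining lists, Sat2 stood at 0.34 and 0.31, Paox, the oxidase of acetylated polyamines, at -0.06 and 0.64, and Azin2 at -0.07 and 0.03.

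**Figure D5:**
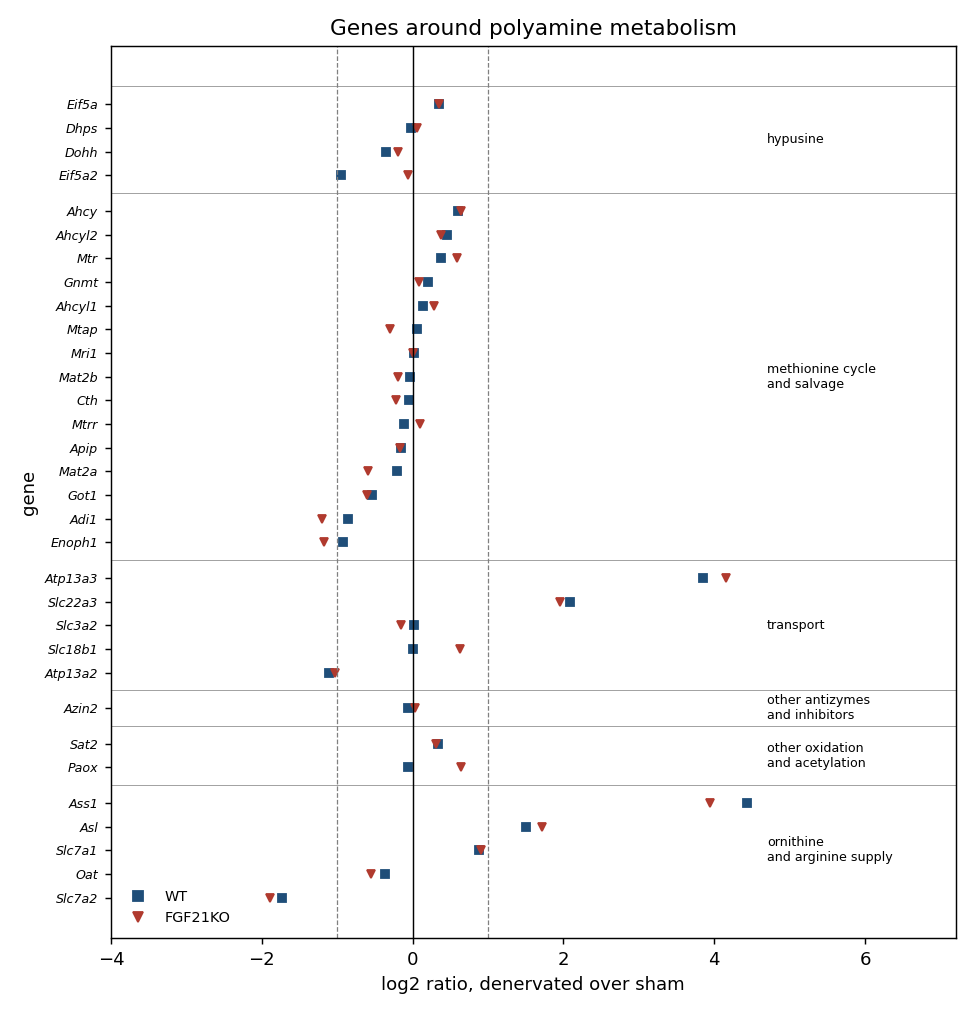
Log2 ratio, denervated over sham, of the 32 neighbouring genes by role, in WT (squares) and FGF21KO (triangles), with dashed lines at 2-fold. Ass1 and Atp13a3 lie between 3.85 and 4.43, Asl and Slc22a3 between 1.5 and 2.09, and Slc7a2 and Atp13a2 below -1 in both genotypes.

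Markers of cell types also differed between sham and denervated libraries. Runx1, Gadd45a and Ncam1, known denervation-responsive genes, were at least 2-fold higher in both denervated libraries, Runx1 with 44 counts in WS and 5422 in WD. Of 8 fast myofibre markers only Myh1 was in the table, at a summed level of 15651 to 17532 CPM in denervated and 21603 to 24303 CPM in sham libraries. Summed CPM of 8 of 8 macrophage markers was 30.8 to 33.6 in sham and 67.9 to 70.0 in denervated libraries, that of 5 of 5 endothelial markers 336 to 415 and 184 to 194, and that of 7 of 7 fibroblast markers 565 to 588 and 388 to 402. Of these 7, 1 was at least 2-fold lower in each genotype, beside 7.61% of all tested genes in WT and 6.1% in FGF21KO. Pi16 had log2 ratios of 0.71 in WT and -1.05 in FGF21KO, and Lum -0.44 and 0.15. The other fibroblast markers were below 0 in both genotypes. For slow fibres 2 of 5 markers were in the table, at 7.37 to 9.34 CPM in sham and 47.4 to 48.6 CPM in denervated libraries. Most of that sum was Tnnt1, with log2 ratios of 2.84 in WT and 2.95 in FGF21KO, while Tnnc1 stood at 0.03 and 0.83. Schwann cell markers in the table (2 of 5) ran from 15.0 to 21.9 CPM, the single adipocyte marker Cfd from 10.8 to 19.7 CPM, and satellite cell markers (0 of 4) were not analysed here. The part of these shifts in the member ratios was not tested, and in bulk RNA fewer cells of a type and less RNA per cell cannot be told apart. The deleted gene, Fgf21, was not analysed here, and the labels of genotype could therefore not be checked on it.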

How the data were processed

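Polyadenylated RNA of TA muscle was sequenced as stranded libraries from 4 groups, each 1 pooled library, grouped by GEO's labels. The authors deposited raw read counts per gene, and another table, named for FPKM, of log2 values. The deposited log2 values were found to be log2(count × factor + 1), with 1 factor per library and no length term. The processing notes name FastQC and GRCm39, and the aligner and counter are not given in the sources used here. Members and gene lists were chosen with earlier results of these data known. Counts were scaled by TMM (edgeR 4.0.16, R 4.3.3) for genes averaging at least 10 counts, with log2 CPM at a prior count of 2. Contrasts of single libraries had no test, and called means at least 2-fold. Exact tests at an assumed variation, which these libraries cannot estimate, were run as alternatives only. Intervals are exact binomial or Poisson and cover counting error only. The genes named are the members, the highest and lowest of each wider list, those 2-fold apart in any comparison, and the 5 nearest profiles. DESeq2 1.42.0, Biopython 1.88, Python 3.11.15 and scipy 1.17.1 were also used. Promoters come from RefSeq (GRCm38.p6) and transcripts from GENCODE M21. Alternatives covered the scaling, prior count, filter, deposited values, assumed variation and fold.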

Additional observations from a re-analysis of the deposited data

Results flagged for a closer look

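Cell type markers apart, the denervation log2 ratio had opposite signs in the genotypes for 3 of the genes named, and with 1 library per group the difference was not tested. Over all 32 neighbouring genes, named or not, the signs were opposite for 6. Azin1 gave 0.045 in WT and -0.13 in FGF21KO, a difference of -0.18 (counting interval -0.31 to -0.04), but both values were above 0 under library totals only. Paox gave -0.065 in WT and 0.64 in FGF21KO, on 108 to 180 counts per library, and 0.21 in WT under library totals only. Its difference was 0.71 (counting interval 0.22 to 1.21). Azin2 gave -0.065 in WT and 0.032 in FGF21KO, on 44 to 65 counts per library, and the counting interval of the difference ran from -0.66 to 0.86.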

How the results depend on the processing

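By the series text, the sham and denervated libraries of a genotype come from legs of the same mice, and the additive model already holds both terms. No paired analysis was possible because, beyond that model, a group holds only 1 library, whose number is a name and pairs nothing, and for the same reason no library could be left out. The counts of members at least 2-fold apart stayed within 1.5 times under each other scaling, prior count, filter, deposited table and fold limit. Of 400 alternative values of the log2 ratios of the members and the pair, 353 stayed within the counting interval, 47 moved outside it and 0 of the 2-fold ratios changed sign. All 47 were under library totals, with or without the mitochondrially encoded genes. Library totals only brought members at least 2-fold apart in KD against KS from 3 to 4, by Odc1 at 1.18. Counting the Amd pair as 1 gene gave 3 in WT and 2 in FGF21KO.

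The wider lists held 6 genes at least 2-fold apart in WT, 8 in FGF21KO and 1 in KD against WD. An exact test at an assumed variation of 0.4, a value not estimated from these libraries, left 2, 2 and 0 of them, a 1.5-fold limit gave 11 in WT and 15 in FGF21KO, and the deposited log2 values gave 0 in KD against WD. Over all tested genes, the counts were 1936 in WT, 1780 in FGF21KO, 267 in KS against WS and 203 in KD against WD. In the same order, the deposited log2 values gave 1188, 1117, 29 and 25, an assumed variation of 0.4 gave 63, 81, 0 and 3, and a 1.5-fold limit gave 4545, 4429, 997 and 774. In the genotype contrasts alone, a mean count of at least 50 gave 68 and 46, and an assumed variation of 0.1 gave 56 and 49. The additive model called 23 genes for genotype, 15 at a mean count of at least 50, which tests fewer genes, and 13 by DESeq2's Wald test. The cause of the other changes was not tested. Among the members Srm had the fewest counts in the sham libraries.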
